A study of Mus musculus with 217 samples.

Results

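The response of brain endothelial cells (ECs) to bacterial lipopolysaccharide (LPS) 48 hr after injection was compared with the response of heart ECs at the same time. For each gene the change from 0 hr to 48 hr in brain was set against the change from 0 hr to 48 hr in heart, as the interaction of tissue and time. The comparison addresses whether the endothelium of both organs stood at the same stage of injury and recovery. It used 22 of the 98 libraries of the series, namely 5 brain libraries at 0 hr, 6 brain libraries at 48 hr, 5 heart libraries at 0 hr and 6 heart libraries at 48 hr. A further 4 libraries of these groups had under 3% of their reads on genes and were left out. All mice were adult Cdh5CreERT2/+; Rpl22HA/+ mice (RiboTag) on a C57BL/6J background that had received 5 mg tamoxifen by gavage 4 times, every other day, from 4 to 6 weeks of age. The 48 hr mice had received 10 mg/kg LPS intraperitoneally and the 0 hr mice, per the study's methods, PBS. The Cre recombinase was driven by Cdh5 (VE-cadherin), so the HA tag sat on ribosomes of cells with a history of Cdh5 activity, and ribosome-bound RNA was pulled from homogenized tissue that had been perfused with PBS. A level is therefore the share of a gene in this pull-down, and fewer cells and less RNA per cell cannot be told apart.

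LPS is sensed through CD14, MD-2 and Toll-like receptor 4, and the endothelium answers with NF-kappaB and STAT3 target genes, leukocyte adhesion molecules, chemokines and complement. Endothelial repair can follow by division of remaining ECs, which requires the origin-licensing MCM helicase, nucleotide synthesis and the mitotic machinery. Brain ECs also carry the blood-brain barrier, with dense transporters for glucose, lipids and organic anions, whereas heart ECs are specialised for fatty acid uptake.

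The 22 libraries held 8161033 to 32303620 counts, and 54.1% to 68.7% of their reads lay on genes. The endothelial markers Pecam1, Cdh5 and Cldn5 were detected in all of them, and the summed level of 16 endothelial markers was 4190 to 8880 CPM (counts scaled by the total of the library) in brain at 0 hr and 6390 to 9650 at 48 hr, against 17600 to 18800 and 14400 to 19900 in heart. Brain libraries also held RNA of neurons (12 markers, 2080 to 7520 CPM at 0 hr and 1070 to 5670 at 48 hr) and oligodendrocytes (8 markers, 1110 to 6710 and 437 to 4510 CPM). Brain replicates 1 and 2 at 48 hr, both of the set called library series 2 below, stood apart from the other 4, with 4080 to 5670 CPM of neuronal markers against 1070 to 2020. The mean level of 28 acute-phase genes was 4.65 and 4.17 on the log2 CPM scale in these 2 and 6.32 to 7.60 in the other 4, against 2.52 to 3.04 in the controls. Heart replicates 1 and 2 at 48 hr were also the lowest of their group, at 5.71 and 5.21. The other 4 heart libraries had 6.26 to 7.45, against 3.22 to 3.58 in the heart controls. The libraries fell into sets with different patterns of file names, called library series here, and the 48 hr replicates 6 and 7 of both tissues formed a series with no 0 hr library. Library series was a covariate of the test. Whether the libraries of a group came from separate mice is not stated in the labels, so p-values measure the spread between these libraries.

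Of 18266 genes tested, 171 (0.936%) had a brain response above the heart response and 189 (1.03%) a brain response below it, by edgeR's quasi-likelihood test at an adjusted p under 0.05. In brain 815 genes rose (4.46%) and 449 fell (2.46%) from 0 hr to 48 hr, and in heart 514 rose (2.81%) and 185 fell (1.01%). At an unadjusted p under 0.05 edgeR gave 1121 genes above and 1546 below in the interaction. By the same unadjusted p, 2023 rose and 2274 fell in brain, and 1716 rose and 1150 fell in heart. The brain and heart libraries of a number come from the same mouse by their file names, and with the mouse as a block 155 genes were above and 113 below. Within library series 1 alone, with 2 libraries per group, 0 genes passed in either direction (edgeR, 859 at an unadjusted p under 0.05), and within library series 2 alone 25 were above and 54 below. Values below are log2 CPM for levels and log2 fold changes ± SE for responses, and the difference is the brain response minus the heart response. The strand setting of the counting is not stated, so reads of Cdc20 and Elovl1, of Nusap1 and Oip5, and of other named genes that share exonic bases with an antisense gene (Adamts9, Bmp4, C2, Gas7, Ptger4, Slc2a1, Ndrg1, Bnip3, Ecscr, Icam1 and Selp) cannot be told apart from those of their partners.

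**Figure D1:**
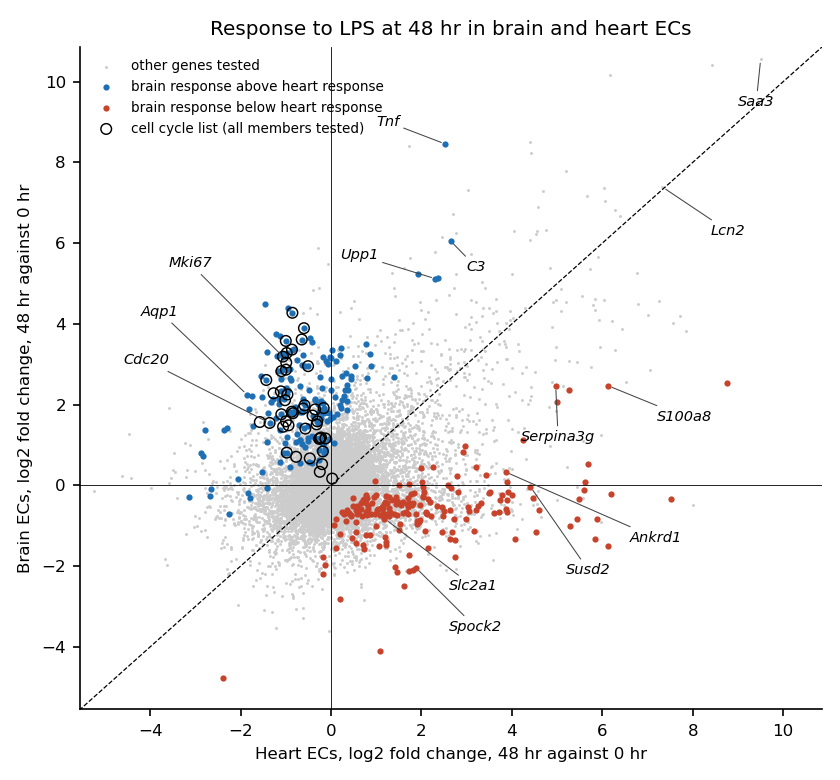
Each point is a gene, with the log2 fold change from 0 hr to 48 hr in heart ECs on the horizontal axis and in brain ECs on the vertical axis; coloured points passed the interaction test, circles are the 43 cell cycle genes and the dashed line marks equal responses. The cell cycle genes lie above the dashed line with heart changes near or below 0, whereas Lcn2 and Saa3 lie close to it at large values.

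Cell cycle genes made up the group that differed most in number. Of 43 tested genes of a list of 44, 23 had a brain response above the heart response and 0 below, against 0.936% and 1.03% of all genes, with edgeR at an unadjusted p under 0.05 giving 41 and 0. The difference was positive for all 43, with a median of 2.58 against −0.05 over all genes. In brain 30 of the 43 rose and 0 fell, against 4.46% and 2.46% of all genes, with a median of 1.79 (edgeR, 39 and 0 at an unadjusted p under 0.05). In heart 0 rose and 1 fell, against 2.81% and 1.01% of all genes, with a median of −0.84 (edgeR, 0 and 10 at an unadjusted p under 0.05). With the mouse as a block 18 were above, with DESeq2 36 and with limma-voom 11, each with 0 below. The count ran from 13 to 32 when 1 library was left out, with 13 without brain 0 hr replicate 4, heart 0 hr replicate 4 or heart 48 hr replicate 4, 14 without brain 0 hr replicate 3, 15 without heart 0 hr replicate 1 or 5, and 32 without brain 48 hr replicate 3. Within library series 1 the median difference was 3.40, within library series 2 it was 2.55, and without library series 4 it was 3.06 with 23 genes above.

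The levels of these genes started far apart. Before LPS 42 of the 43 genes had a higher mean in heart than in brain ECs, and at 48 hr still 40. The mean level of the 43 genes was 0.72 to 0.98 in the brain libraries at 0 hr and 1.21 to 3.65 at 48 hr, so every 48 hr library lay above every control. In heart it was 3.55 to 4.70 at 0 hr and 2.39 to 4.06 at 48 hr, and these groups overlapped.

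Cdc20, the mitotic activator of the anaphase-promoting complex, had the smallest adjusted p of the 43 genes. Its levels were 1.58, 1.62, 1.60, 1.88 and 1.22 in the brain libraries at 0 hr and ran from 2.55 through a median of 2.86 to 3.66 at 48 hr. In heart they were 5.29, 4.43, 3.88, 4.80 and 4.89 at 0 hr and ran from 2.71 through 3.39 to 3.68 at 48 hr. Neither pair of groups overlapped, with brain rising toward the level to which heart had fallen. The brain response was 1.55 ± 0.29, the heart response −1.36 ± 0.28 and the difference 2.91 ± 0.38 (adjusted p = 0.000538).

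Rrm2, the regulatory subunit of ribonucleotide reductase, stood at 0.09, 0.17, 0.90, 0.53 and 0.58 in brain at 0 hr and at 1.71 to 4.48 (median 2.57) at 48 hr. In heart it stood at 4.99, 4.56, 4.15, 4.89 and 4.55 at 0 hr and at 2.09 to 4.41 (median 3.17) at 48 hr. All brain 48 hr libraries exceeded the controls, while the heart groups overlapped, and the difference was 3.93 ± 0.63 (adjusted p = 0.00315). Mcm3, a subunit of the replicative helicase, was 3.78, 3.99, 3.01, 2.98 and 3.38 in brain at 0 hr and 3.84 to 6.14 (median 5.43) at 48 hr. In heart its level was 6.69, 6.44, 6.10, 6.22 and 6.55 at 0 hr and 5.70 to 6.83 (median 6.34) at 48 hr. Mcm3 rose in brain by 1.59 ± 0.24 and gave −0.30 ± 0.23 in heart (adjusted p = 0.577), with a difference of 1.89 ± 0.31 (adjusted p = 0.00323). Both its brain and its heart groups overlapped.

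The promoter windows of these 3 genes (RefSeq, GRCm38.p6, 250 bases before to 50 after the start of transcription) are shown because cell cycle promoters are known to share short elements. Capitals mark matches on either strand to the cell cycle homology region TTTGAA, to the CCAAT box and to the E2F letters TTTNNCGC, all of which were picked after the values were seen.
Cdc20, chr4:118437294-118437593, minus strand: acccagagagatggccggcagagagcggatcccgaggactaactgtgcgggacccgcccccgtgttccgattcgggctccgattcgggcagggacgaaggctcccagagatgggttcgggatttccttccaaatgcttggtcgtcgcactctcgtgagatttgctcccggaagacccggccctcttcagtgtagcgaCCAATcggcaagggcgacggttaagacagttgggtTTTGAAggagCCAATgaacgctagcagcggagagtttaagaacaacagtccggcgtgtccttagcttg
Rrm2, chr12:24708004-24708303, plus strand: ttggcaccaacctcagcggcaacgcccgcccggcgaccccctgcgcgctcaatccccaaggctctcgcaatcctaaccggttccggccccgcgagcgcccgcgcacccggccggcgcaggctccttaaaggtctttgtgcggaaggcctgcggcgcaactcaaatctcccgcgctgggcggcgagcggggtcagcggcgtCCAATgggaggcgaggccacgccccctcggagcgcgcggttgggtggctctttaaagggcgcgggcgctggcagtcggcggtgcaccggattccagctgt
Mcm3, chr1:20820263-20820562, minus strand: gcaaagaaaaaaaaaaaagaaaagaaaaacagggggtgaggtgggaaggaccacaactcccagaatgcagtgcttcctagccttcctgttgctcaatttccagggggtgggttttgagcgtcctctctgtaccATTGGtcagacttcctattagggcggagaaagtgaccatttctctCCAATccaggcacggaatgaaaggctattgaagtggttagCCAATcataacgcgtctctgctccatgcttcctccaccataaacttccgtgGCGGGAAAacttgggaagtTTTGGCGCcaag

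Cdc20 held 2 CCAAT boxes and 1 homology region, Rrm2 1 CCAAT box, and Mcm3 3 CCAAT boxes and 2 E2F matches. The window of Nusap1, also searched but not shown, held 0 matches to any of these letters. Over the 40 windows of 37 matched cell cycle genes, 82.5% held CCAAT, 45% TTTGAA and 27.5% TTTNNCGC, against 37.4%, 17.9% and 5.17% of the 32851 windows of all genes. The STAT letters TTCNNNGAA were in 5% of the cell cycle windows and 8.3% of all windows, and in 17.2% of the 29 windows of acute-phase and STAT3 genes. The interferon response element was in 2.5%, 3.44% and 3.45% of these windows, and the kappaB site in 10%, 8.46% and 17.2%. The acute-phase windows held CCAAT in 31%, TTTGAA in 13.8% and TTTNNCGC in 6.9%. A match describes the letters of the window and shows no binding.

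**Figure D2:**
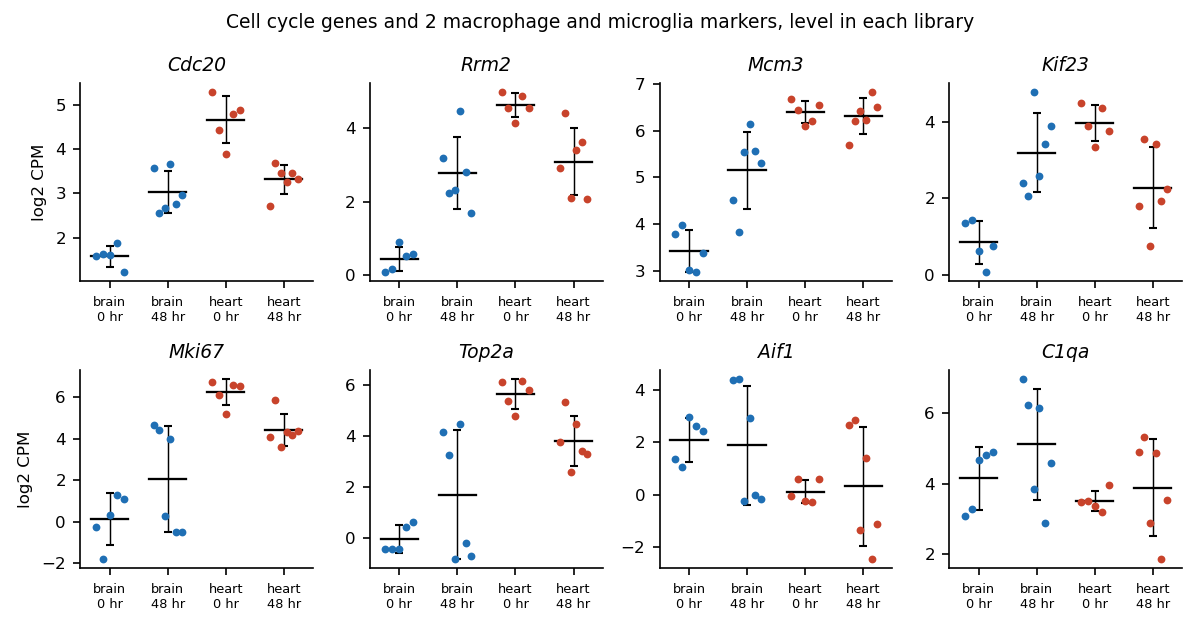
Log2 CPM of 6 cell cycle genes and of the macrophage and microglia markers Aif1 and C1qa in each library (points), with the mean and SD of each group (bars); brain is blue and heart red. Cdc20, Rrm2 and Kif23 rose in all 6 brain libraries at 48 hr, whereas Mki67, Top2a and C1qa exceeded every control in only 3 of them and Aif1 in only 2.

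The brain 48 hr libraries did not all show the same part of the cell cycle list. Of the 43 genes, replicates 1, 2, 3, 4, 6 and 7 had 39, 33, 21, 42, 21 and 20 above every control, where 18.2% to 26.4% of all genes were. Only 9 genes were above every control in all 6 libraries, or 20.9% of the list, against 2.44% of all genes. They include Cdc20, Rrm2, Kif23 (cytokinesis, difference 4.04 ± 0.69, adjusted p = 0.00356), Nusap1 (spindle microtubules, 3.22 ± 0.54, adjusted p = 0.0035), Aurka (centrosome kinase, 2.63 ± 0.47, adjusted p = 0.00497) and Foxm1 (transcription factor of mitotic genes, 2.86 ± 0.50, adjusted p = 0.00423), and the other 3 were Ccna2, Bub1b and Cks2. Kif23, Aurka, Foxm1, Ccna2, Bub1b and Cks2, like Mki67, Top2a, Cdk1 and Birc5 below, were picked after their values were seen.

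Mki67, the proliferation marker Ki-67, was −0.23, −1.80, 0.34, 1.28 and 1.09 in brain at 0 hr. At 48 hr it was 4.68, 4.41, 0.29, 4.00, −0.49 and −0.48 in replicates 1, 2, 3, 4, 6 and 7, so it was high in replicates 1, 2 and 4 and within the range of the controls in the other 3. In heart it was 6.75, 6.11, 5.21, 6.60 and 6.55 at 0 hr and 3.59 to 5.87 (median 4.25) at 48 hr, with overlap. The difference of 4.25 ± 1.02 passed (adjusted p = 0.032) but not with the mouse as a block (adjusted p = 0.102), and it was lost without any of 8 libraries. Top2a, the DNA topoisomerase of dividing cells, and Cdk1, the mitotic kinase, were high in the same 3 brain libraries. Their differences were 4.23 ± 0.98 (adjusted p = 0.0268) and 4.26 ± 1.04 (adjusted p = 0.0343), the latter with an adjusted p of 0.0857 under the block, and the calls were lost without any of 5 and 10 libraries. Birc5, the survivin gene, gave 4.58 ± 0.82 (adjusted p = 0.00504). In brain replicates 1, 2, 3, 4, 6 and 7 at 48 hr it was 3.33, 2.21, 0.05, 3.73, −0.56 and −0.01, against −1.80 to −0.06 at 0 hr. It was thus also high in replicates 1, 2 and 4 and near or within the range of the controls in the other 3.

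Markers of microglia and macrophages moved with this split. In replicates 1, 2, 3, 4, 6 and 7 of brain at 48 hr the sum of 10 microglia markers was 858, 662, 145, 572, 189 and 197 CPM, against 221 to 411 in the controls. The sum of 10 monocyte and macrophage markers was 238, 222, 48.7, 135, 44.8 and 56.6 CPM, against 14.8 to 60. Aif1 (IBA1) had levels of 4.36, 4.40, −0.24, 2.93, −0.00 and −0.15, against 1.04 to 2.95 at 0 hr, so that only replicates 1 and 2 exceeded the controls. C1qa had 6.97, 6.24, 3.84, 6.16, 2.89 and 4.59, against 3.08 to 4.89, and exceeded them in replicates 1, 2 and 4. Tmem119, of the same microglia list, had 4.92, 4.44, 5.44, 6.57, 6.85 and 5.88, against 4.75 to 6.93, and exceeded them in none. Aif1, C1qa and Tmem119 were picked after their values were seen. No marker of either list was at 0 in every library of a group. The same numbers were high in heart at 48 hr, where replicates 1, 2 and 4 had 158 to 352 CPM of monocyte and macrophage markers and the other 3 had 15.4 to 27.9. The mean level of the 43 cell cycle genes in heart replicates 1, 2, 3, 4, 6 and 7 at 48 hr was 2.84, 4.06, 2.39, 3.58, 2.86 and 3.01. The part of these cells in the cell cycle values was not tested. In brain replicates 3, 6 and 7, where both sums lay within or below the range of the controls, the mean level of the 43 genes was 1.43, 1.28 and 1.21, and Cdc20 was 2.67, 2.75 and 2.97. Mki67 was 0.29, −0.49 and −0.48 in the same replicates, within its range in the controls.

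Of 16 genes of the LPS receptor complex and its adaptors, 2 had a larger response in brain (12.5%, against 0.936% of all genes) and 9 had a positive difference (median 0.20 against −0.05 over all genes). Cd14, the co-receptor that hands LPS to the receptor complex, was 2.30, 2.22, 1.71, 1.85 and 1.27 in brain at 0 hr and 3.48 to 8.50 (median 8.26) at 48 hr. The heart libraries had 1.94, 1.97, 1.34, 1.85 and 1.97 at 0 hr and 3.63 to 5.20 (median 4.98) at 48 hr. The groups did not overlap in either tissue, and from like controls brain rose by 5.12 ± 0.53 and heart by 2.36 ± 0.47. The difference of 2.76 ± 0.61 passed (adjusted p = 0.0199) but not with the mouse as a block (adjusted p = 0.0657), nor without heart 0 hr replicate 4 (0.0513) or 5 (0.0563). Tlr2, the receptor of bacterial lipoproteins, rose in both tissues, with a difference of 1.29 ± 0.29 (adjusted p = 0.02; 0.0757 under the block and 0.0531 without brain 0 hr replicate 3). Cd14 and Tlr2 were the members called, and 0 were below (edgeR, 3 above and 0 below at an unadjusted p under 0.05). Ly96, which encodes MD-2, gave −0.56 ± 0.38 (adjusted p = 0.54).

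C3, the central complement component, was −1.24, −0.60, 1.75, −0.17 and 1.97 in brain at 0 hr and 5.33 to 8.15 (median 6.33) at 48 hr. Heart ECs had C3 at 4.67, 5.18, 5.39, 5.22 and 5.14 at 0 hr and 5.98 to 8.24 (median 7.81) at 48 hr. Every 48 hr library exceeded the controls in both tissues, from a lower control level in brain, and the 48 hr groups of the 2 tissues overlapped. Brain rose by 6.05 ± 0.67 and heart by 2.64 ± 0.55, with a difference of 3.41 ± 0.75 (adjusted p = 0.019). Of 17 complement genes 1 was above and 3 were below, together 23.5%, against 1.97% of all genes. Those below were C2 of the classical pathway (−2.50 ± 0.62, adjusted p = 0.0374), the inhibitor Cd59a (−1.29 ± 0.32, adjusted p = 0.0424) and clusterin, Clu (−1.51 ± 0.38, adjusted p = 0.0432). These 3 calls were lost without any of 11, 17 and 16 libraries, and those of C2 and Clu under the block (adjusted p = 0.0655 and 0.0978). The heart libraries held 0 to 19 counts of C2 at 0 hr and 7 to 66 at 48 hr, so its difference rests in part on a few counts.

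Among 27 chemokine genes 1 was above and 2 were below, together 11.1%, against 1.97% of all genes. Ccl5, which attracts T cells and monocytes, was −1.24, −1.40, 0.24, −0.38 and −0.79 in brain at 0 hr and 3.65 to 6.93 (median 4.94) at 48 hr, with no overlap. Heart ECs had Ccl5 at 0.57, 0.14, −0.11, 1.26 and 1.03 at 0 hr and 1.23 to 4.51 (median 3.18) at 48 hr, with overlap, and the difference was 3.32 ± 0.73 (adjusted p = 0.0196; 0.0526 without heart 0 hr replicate 4). Cx3cl1, the membrane-bound ligand of monocyte and microglial CX3CR1, went the other way. It was 7.40, 7.52, 8.30, 8.83 and 8.27 in brain at 0 hr and 6.57 to 8.30 (median 7.21) at 48 hr, while in heart it was 5.68, 5.60, 5.54, 5.40 and 5.55 at 0 hr and 6.42 to 8.49 (median 7.36) at 48 hr. It rose in heart by 2.20 ± 0.32 without overlap and gave −0.42 ± 0.31 in brain (adjusted p = 0.42), a difference of −2.61 ± 0.41 (adjusted p = 0.00245). Cxcl14 gave −2.82 ± 0.71 (adjusted p = 0.0406; 0.129 under the block), a call lost without any of 13 libraries.

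Tnf, the cytokine TNF-alpha, had 0 counts in all 5 brain libraries at 0 hr and 16 to 124 counts in the 6 at 48 hr. Summed over the group, and with a floor of 3 counts for the controls, it was at least 72.1-fold higher at 48 hr in brain. In heart it was 0.35, −0.32, 0.73, 0.75 and 0.10 at 0 hr and 1.35 to 3.44 at 48 hr, a rise of 2.53 ± 0.54 without overlap. The interaction passed (adjusted p = 0.0258) but not under the block (0.125), nor without brain 0 hr replicate 3 (0.0544) or 4 (0.0594) or heart 0 hr replicate 4 (0.0513). It was the 1 call among 26 cytokine genes, or 3.85%, against 1.97% of all genes in either direction. Ifi204, a DNA sensor induced by interferon, was the 1 call among 48 interferon-stimulated genes. That is 2.08% of the list, close to the 1.97% of all genes called in either direction. Ifi204 rose by 2.79 ± 0.37 in brain and gave 0.32 ± 0.28 in heart (adjusted p = 0.64), with a difference of 2.47 ± 0.45 (adjusted p = 0.00504). It belongs to a family of near-identical genes, so its reads may be split among them.

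**Figure D3:**
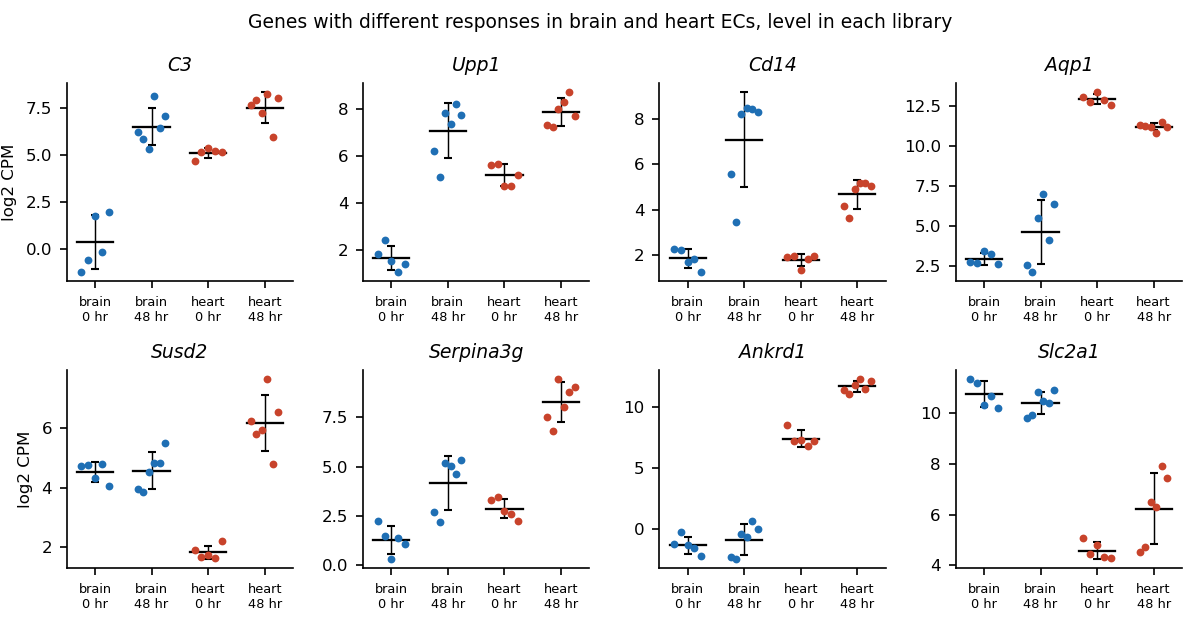
Log2 CPM of 8 genes named by a fixed rule or list in each library (points), with the mean and SD of each group (bars); brain is blue and heart red. C3, Upp1 and Cd14 rose in both tissues and more in brain, Serpina3g rose more in heart, and Susd2 and Ankrd1 rose in heart with overlapping brain groups.

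The largest differences among well expressed genes with the same sign in library series 1 and 2 covered several functions. Upp1, the uridine phosphorylase of pyrimidine salvage, was 1.82, 2.41, 1.54, 1.05 and 1.38 in brain at 0 hr and 5.09 to 8.20 (median 7.54) at 48 hr. Heart ECs had Upp1 at 5.62, 5.64, 4.69, 4.69 and 5.20 at 0 hr and 7.22 to 8.71 (median 7.83) at 48 hr. Both tissues changed without overlap and reached overlapping levels, with responses of 5.12 ± 0.32 and 2.31 ± 0.27 and a difference of 2.81 ± 0.36 (adjusted p = 0.000538). Tubb6, a beta-tubulin, rose by 3.40 ± 0.43 in brain and gave 0.23 ± 0.39 in heart (adjusted p = 0.847), and its difference was 3.18 ± 0.53 (adjusted p = 0.00336). Lpin3, a phosphatidate phosphatase of lipid synthesis, rose by 3.25 ± 0.41 in brain, with a difference of 2.38 ± 0.50 (adjusted p = 0.0141). All brain 48 hr libraries lay above the controls for these 3 genes.

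Matrix and vessel growth genes were also in this group. The secreted proteases Adamts9 and Adamts1 rose in brain by 3.08 ± 0.40 and 2.72 ± 0.41 without overlap, with differences of 2.97 ± 0.50 (adjusted p = 0.00347) and 2.28 ± 0.50 (adjusted p = 0.019; 0.0513 without heart 0 hr replicate 4). Apln, the ligand of the apelin receptor made by angiogenic tip cells, was 3.15, 3.55, 4.80, 4.31 and 4.25 in brain at 0 hr and 4.37 to 8.82 (median 5.83) at 48 hr. Heart ECs had Apln at 9.11, 8.35, 8.22, 8.17 and 8.57 at 0 hr and 4.82 to 8.14 (median 6.96) at 48 hr, below all controls, and the difference was 3.80 ± 0.82 (adjusted p = 0.0174). Cd93, an endothelial lectin-like receptor, gave 1.74 ± 0.37 (adjusted p = 0.015). Lama4, the laminin alpha-4 chain of the endothelial basement membrane, gave 1.53 ± 0.33 (adjusted p = 0.0182; 0.0634 under the block). Of 33 matrix genes 3 were above and 1 was below, and of 23 angiopoietin and VEGF genes 2 were above and 1 below. These were 12.1% and 13% of the lists, against 1.97% of all genes. The sum of 8 fibroblast markers was 674 to 2010 CPM in brain at 0 hr and 864, 678, 2480, 4020, 5850 and 5740 in replicates 1, 2, 3, 4, 6 and 7 at 48 hr. The heart sum was 301 to 681 CPM at 0 hr and 788 to 1520 at 48 hr, without overlap. A sum is led by its most abundant members, and 0 of the 8 markers passed from 0 hr to 48 hr in either tissue. Their median response was 0.22 in brain and 0.30 in heart. Their mean level was 4.67 to 6.12 and 4.41 to 6.17 log2 CPM in brain at 0 hr and 48 hr. In heart it was 4.11 to 5.14 and 4.21 to 5.62, so both pairs of groups overlapped. The part of fibroblasts in the matrix values was not tested.

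Aqp1, the water channel, had by far its highest levels in heart, at 13.02, 12.73, 13.35, 12.83 and 12.56 at 0 hr and 10.76 to 11.46 (median 11.22) at 48 hr, without overlap. In brain it was 2.73, 2.66, 3.38, 3.20 and 2.59 at 0 hr and 2.09 to 6.96 (median 4.78) at 48 hr, with replicates 1 and 2 below the lowest control and the other 4 above all controls. The difference was 4.10 ± 0.83 (adjusted p = 0.0116; 0.0766 under the block). Ptger4, the prostaglandin E2 receptor EP4, fell in heart by 1.42 ± 0.30 on the log2 scale and gave 1.07 ± 0.33 in brain (adjusted p = 0.0539), with a difference of 2.48 ± 0.42 (adjusted p = 0.00356). Plau, the urokinase gene, gave a difference of 1.85 ± 0.44 (adjusted p = 0.0308, and 0.0603 under the block) and was lost without any of 10 libraries. Its level in brain was 1.33 to 1.96 at 0 hr and 1.09 to 2.72 at 48 hr, with overlap. In heart Plau was 5.29 to 5.53 at 0 hr and 2.26 to 5.09 at 48 hr, below all controls. Rpap3, a co-chaperone of RNA polymerase assembly, gave 2.63 ± 0.69 (adjusted p = 0.0493; 0.102 under the block) and was lost without any of 17. Ecscr, an endothelial surface protein and a marker of the endothelial list, gave 2.14 ± 0.37 (adjusted p = 0.00356) and was picked after its values were seen.

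In the other direction, several genes passed in heart ECs and not in brain ECs. Susd2, a membrane protein with a sushi domain, was 1.90, 1.68, 1.74, 1.63 and 2.20 in heart at 0 hr and 4.80 to 7.63 (median 6.08) at 48 hr. In brain it was 4.73, 4.75, 4.31, 4.79 and 4.05 at 0 hr and 3.84 to 5.50 (median 4.67) at 48 hr. The heart groups did not overlap and the brain groups did, with responses of 4.41 ± 0.41 and −0.03 ± 0.37 (adjusted p = 0.969) and a difference of −4.44 ± 0.51 (adjusted p = 0.0003). Ankrd1, a stress-induced transcriptional cofactor best known from heart muscle, was 8.57, 7.26, 7.36, 6.81 and 7.23 in heart at 0 hr and 11.14 to 12.31 (median 11.67) at 48 hr. The brain libraries had 2 to 46 counts of it, so its difference of −3.53 ± 0.60 (adjusted p = 0.00356) rests in part on a few counts. The summed level of 11 cardiomyocyte markers in heart was 4660 to 9000 CPM at 0 hr and 3150 to 5500 at 48 hr, while Nppa, a member of that list, had a heart response of 1.90 ± 0.40 and was picked after its values were seen.

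Pgf, the placental growth factor that binds VEGF receptor 1, rose in heart by 3.21 ± 0.49 from 6.25, 5.04, 5.37, 4.46 and 4.80 to 6.90 to 11.00 (median 8.91) without overlap. In brain it gave 0.45 ± 0.43 (adjusted p = 0.547), and the difference was −2.75 ± 0.60 (adjusted p = 0.0174; 0.069 without heart 48 hr replicate 3). Mmp14, a membrane-bound collagenase, rose in heart by 1.72 ± 0.34, with a difference of −2.15 ± 0.43 (adjusted p = 0.0103; 0.0534 without heart 48 hr replicate 6). Serpine2, an inhibitor of thrombin and plasminogen activators, rose in heart by 2.25 ± 0.33, with a difference of −1.79 ± 0.42 (adjusted p = 0.0297) that was lost without any of 8 libraries. Car13, a carbonic anhydrase, and Gas7, an actin regulator, gave −3.13 ± 0.60 (adjusted p = 0.00799) and −2.58 ± 0.43 (adjusted p = 0.00323), and both rose in heart without overlap.

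Spock2, a proteoglycan of the extracellular matrix, moved in opposite directions. In brain it was 10.86, 11.25, 10.57, 11.09 and 11.03 at 0 hr and 7.61 to 10.09 (median 8.23) at 48 hr, below all controls. In heart it was 6.35, 6.30, 6.84, 7.34 and 6.26 at 0 hr and 7.27 to 8.95 (median 8.31) at 48 hr, where only 1 library lay within the range of the controls. Brain fell by 2.04 ± 0.37 on the log2 scale and heart rose by 1.88 ± 0.41, a difference of −3.92 ± 0.54 (adjusted p = 0.0008), and at 48 hr the levels of both tissues overlapped. Bmp4, a bone morphogenetic protein, fell in brain by 2.01 ± 0.55 on the log2 scale, with a difference of −3.42 ± 0.77 (adjusted p = 0.0212). Its call was lost under the block (0.0668) and without brain 0 hr replicate 4 (0.0649), heart 0 hr replicate 1 (0.0509) or heart 48 hr replicate 3 (0.0806) or 7 (0.0583). Cadm3, a neuronal cell adhesion molecule, gave −4.08 ± 0.63 (adjusted p = 0.00245), with a rise of 3.92 ± 0.51 in heart. The 12 neuronal markers summed to 81.7 to 156 CPM in heart at 0 hr and 11.7 to 106 at 48 hr. Their mean level in heart was −1.02 to −0.39 log2 CPM at 0 hr and −0.91 to −0.48 at 48 hr. Their median heart response was 0.53, with 8 of the 12 positive. The part of neuronal RNA in the Cadm3 values was not tested.

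Barrier carriers were the list with the most calls below, at 13.9% of the list against 1.03% of all genes. Of 36 genes 0 were above (edgeR, 0 at an unadjusted p under 0.05; 0 with DESeq2 and limma-voom) and 5 were below, with a median difference of −0.67 against −0.05 over all genes, and 3 of the 5 passed with the mouse as a block. The count below was 2 without library series 4 (median −0.40), 1 with library series estimated separately for each tissue (median −0.52), 1 within library series 2 alone (median −0.07) and 0 within library series 1 alone (median −1.14). In brain 6 of the 36 fell and 0 rose, and in heart 3 rose and 2 fell. Of all genes 2.46% fell in brain, and 2.81% rose and 1.01% fell in heart. Mfsd2a, the transporter of omega-3 lysolipids that restrains transcytosis, was 6.80, 7.46, 6.77, 7.16 and 6.89 in brain at 0 hr and 4.66 to 6.03 (median 4.95) at 48 hr, below all controls. It fell by 1.72 ± 0.29 on the log2 scale in brain, while the heart libraries held only 1 to 2 counts at 0 hr and 1 to 14 at 48 hr, so its difference of −3.44 ± 0.68 (adjusted p = 0.00991) rests in part on a few counts. Slc13a3, a dicarboxylate carrier, was 9.47, 8.71, 8.14, 8.96 and 7.51 in brain at 0 hr and 4.93 to 8.50 (median 6.38) at 48 hr, with overlap. Its heart libraries had 1 to 7 counts at 0 hr and 6 to 190 at 48 hr, and its difference was −5.41 ± 0.99 (adjusted p = 0.00512).

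Slc2a1, the glucose transporter GLUT1, was 11.34, 11.21, 10.31, 10.66 and 10.20 in brain at 0 hr and 9.82 to 10.90 (median 10.44) at 48 hr. The heart libraries had 5.08, 4.43, 4.78, 4.32 and 4.27 at 0 hr and 4.53 to 7.91 (median 6.40) at 48 hr. Both pairs of groups overlapped, with heart replicates 1 and 2 near the controls and the other 4 above them. Brain gave −0.82 ± 0.29 (adjusted p = 0.0925), heart rose by 1.18 ± 0.33, and the difference of −2.0 ± 0.42 passed (adjusted p = 0.0142) but not under the block (0.0554). Lrp8, a receptor of selenoprotein P and reelin, gave −3.24 ± 0.72 (adjusted p = 0.0201), lost under the block (0.0856) and without brain 48 hr replicate 6 (0.0509) or heart 0 hr replicate 4 (0.0503). The heart libraries held 2 to 16 counts of Lrp8 at 0 hr and 20 to 171 at 48 hr, so its difference rests in part on a few counts. Abcc4, an efflux pump of organic anions, gave −1.21 ± 0.27 (adjusted p = 0.0203), lost without heart 0 hr replicate 1 (0.0515) or heart 48 hr replicate 3 (0.0614), 6 (0.0534) or 7 (0.138). The neuronal and oligodendrocyte markers of the brain libraries had median responses of −0.77 and −0.89, and 1 of 12 and 2 of 8 fell, against 2.46% of all genes. The neuronal sum was 2080 and 3280 CPM at 0 hr against 2020 and 1170 at 48 hr in library series 1, 6300 to 7520 against 5670 and 4080 in library series 2, and 1210 and 1070 in the 48 hr libraries of library series 4. The part of these cells in lower shares of other brain genes was not tested. Of the hypoxia and glycolysis list, Ndrg1 (−1.59 ± 0.30, adjusted p = 0.00742) and Bnip3 (−1.16 ± 0.30, adjusted p = 0.0453, lost without any of 15 libraries) were below, and of 30 endothelial transcription factors Meis2 (−1.45 ± 0.34, adjusted p = 0.0292; 0.0856 under the block), lost without any of 7. These were 8.33% and 3.33% of the lists, against 1.97% of all genes in either direction.

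Neutrophil markers rose in both tissues, 6 of 9 tested in brain and 7 in heart, from a lower level in heart. Among all genes 4.46% rose in brain and 2.81% in heart. The sum of 12 markers was 8.11 to 69.9 CPM in brain at 0 hr and 60.1 to 262 at 48 hr, and 1.06 to 1.86 CPM in heart at 0 hr and 12.6 to 54.9 at 48 hr, with Ly6g, Camp, Mmp8 and Elane at 0 in every heart library at 0 hr. Of the 9 markers 0 were above (edgeR, 0 at an unadjusted p under 0.05) and 3 were below (33.3%, against 1.03% of all genes), and the 3 below also passed with the mouse as a block. S100a8, a calprotectin subunit, had 0 to 12 counts in the heart libraries at 0 hr and 51 to 487 at 48 hr. It rose in brain by 2.47 ± 0.39 and in heart by 6.13 ± 0.54, a difference of −3.66 ± 0.62 (adjusted p = 0.00356). S100a9, its partner, gave −2.91 ± 0.71 (adjusted p = 0.0343), lost without any of 9 libraries. Ngp, a granule protein, gave −5.15 ± 1.18 (adjusted p = 0.0253) from heart controls with 0 to 2 counts, lost without any of 5 libraries with adjusted p of 0.0515 to 0.0664. These 3 genes were picked after their values were seen.

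**Figure D4:**
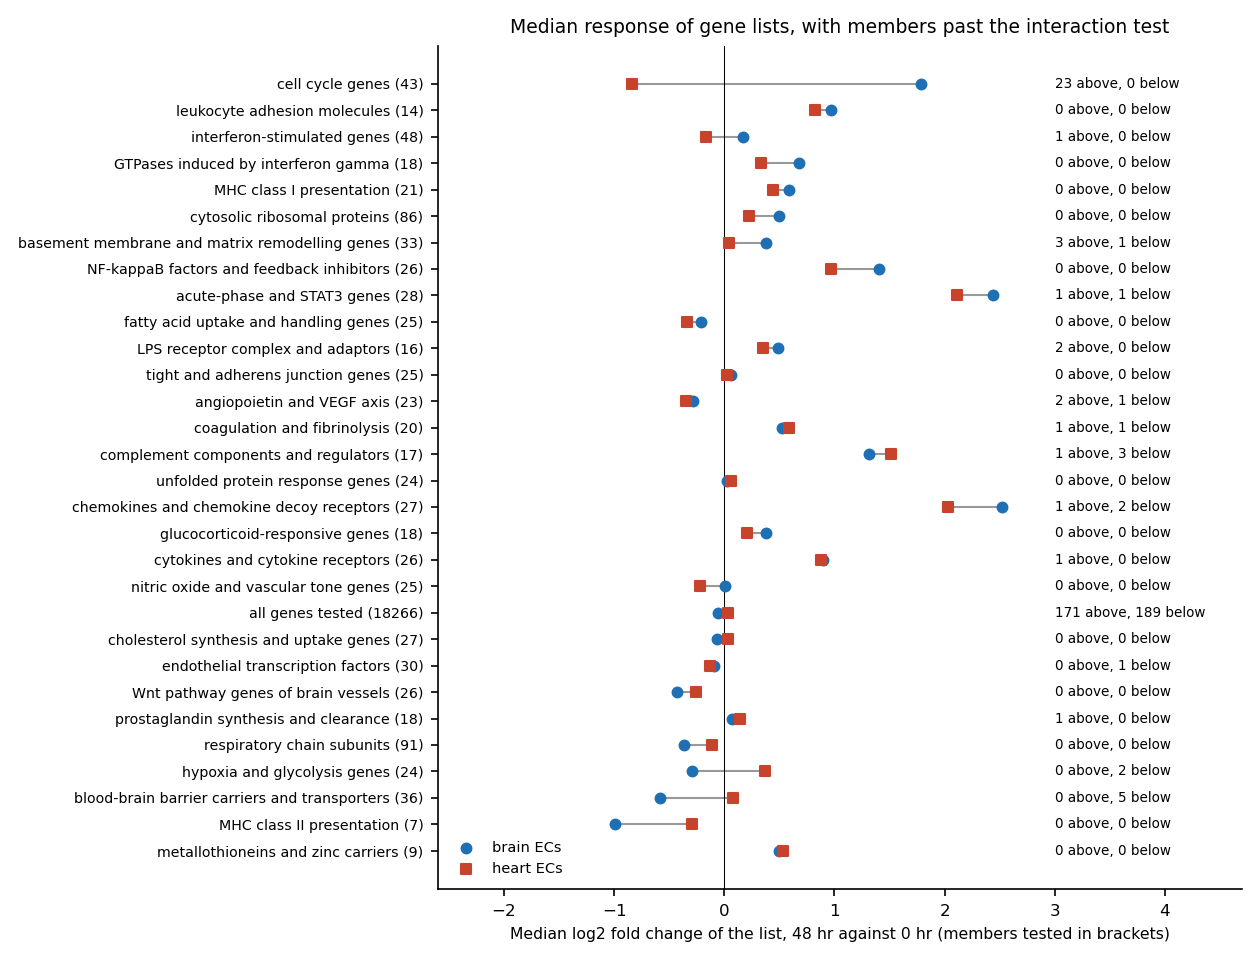
Median log2 fold change from 0 hr to 48 hr of all genes and of each gene list, other than the genes the study names, in brain ECs (blue circles) and heart ECs (red squares), with the number of members tested in brackets and the number past the interaction test at the right. Only the cell cycle list shows a brain median above 1 beside a heart median below 0, at 1.79 and −0.84.

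Acute-phase and STAT3 genes rose in both tissues. Of 28 acute-phase and STAT3 genes, 20 rose and 1 fell in brain (median 2.44) and 15 rose in heart (median 2.11), and 1 was above and 1 below in the difference (DESeq2 1 and 1, limma-voom 0 and 1). The calls in the difference were 7.14% of the list, against 1.97% of all genes, of which 4.46% rose in brain and 2.81% in heart. Lcn2, the iron-sequestering lipocalin, was 4.34, 4.65, 5.40, 4.64 and 2.67 in brain at 0 hr and 8.48 to 14.82 (median 13.86) at 48 hr, and in heart 4.39, 3.22, 4.58, 4.23 and 4.08 at 0 hr and 9.58 to 14.45 (median 13.01) at 48 hr. No groups overlapped within a tissue, and the difference was 0.06 ± 1.02 (adjusted p = 1), an interval from −1.97 to 2.10 at 2 SE. Saa3, a serum amyloid A, rose by 10.56 ± 0.66 in brain and 9.50 ± 0.65 in heart (difference 1.06 ± 0.76, adjusted p = 0.583). Lcn2 and Saa3 were picked after their values were seen. The call above was Tfpi2, a protease inhibitor, with 2.33 ± 0.57 (adjusted p = 0.035; 0.0906 under the block; lost without any of 15 libraries).

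The call below was Serpina3g, a serine protease inhibitor induced by interferon gamma. It was 2.24, 1.49, 0.29, 1.35 and 1.06 in brain at 0 hr and 2.18 to 5.32 (median 4.83) at 48 hr, with overlap. In heart it was 3.29, 3.43, 2.72, 2.59 and 2.26 at 0 hr and 6.82 to 9.43 (median 8.41) at 48 hr, without overlap. Brain rose by 2.46 ± 0.35 and heart by 4.97 ± 0.37, a difference of −2.51 ± 0.44 (adjusted p = 0.00497). Serpina3g has near-identical neighbours in its gene cluster, so its reads may be shared with them.

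Of 30 lists, 15 had no member past the interaction test. They were leukocyte adhesion, interferon gamma GTPases, MHC class I and class II presentation, NF-kappaB factors and inhibitors, junctions, Wnt, metallothioneins, glucocorticoid response, nitric oxide, fatty acid handling, cholesterol, unfolded protein response, ribosomal proteins and the respiratory chain. Over their 438 genes edgeR gave 0 calls, with 32 above and 35 below at an unadjusted p under 0.05, DESeq2 gave 15, limma-voom 0 and the block 5. Over all 18266 genes edgeR gave 1121 above and 1546 below at that unadjusted p. Of 26 NF-kappaB genes 17 rose in brain and 14 in heart (medians 1.40 and 0.97), and of 14 adhesion genes 6 and 5. The shares of all genes that rose were 4.46% in brain and 2.81% in heart. Icam1, the leukocyte integrin ligand, rose by 3.61 ± 0.42 in brain and 2.52 ± 0.40 in heart (difference 1.09 ± 0.50, adjusted p = 0.318), and was picked after its values were seen. A p above the threshold does not show equal responses here, as the SE of many differences was above 0.5.

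Of 16 genes that the study names for the LPS course, which were chosen on these samples and are not independent evidence, Slc2a1 alone passed. Selp (P-selectin) rose by 7.79 ± 0.84 in brain and 5.21 ± 0.71 in heart, with a difference of 2.58 ± 0.90 (adjusted p = 0.155). Sele (E-selectin) gave a difference of 1.76 ± 1.14 (adjusted p = 0.522). Cxcl1, a neutrophil chemokine, rose by 8.24 ± 1.03 in brain and 4.43 ± 0.83 in heart, with a difference of 3.81 ± 1.04 (adjusted p = 0.0605), and Ccl11, an eosinophil chemokine, gave 2.95 ± 0.78 (adjusted p = 0.0532). Rnd1 and Pfkfb3 gave 0.38 ± 0.71 (adjusted p = 0.885) and −1.16 ± 0.61 (adjusted p = 0.393; 0.0115 under the block). The differences of Ly96, Casp6, Vwa1, Foxf1, Tspan8, Cd36, Cav1, Kdr and Cxcl9 lay between −0.56 and 1.50, with adjusted p of 0.54 to 1.

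The 48 hr values were set beside the other times in a fit of all brain and heart libraries, with 4 to 6 libraries per group, whose time points share their 0 hr controls. At 6, 24, 48, 72 and 168 hr, 0, 1, 29, 37 and 0 of the 43 cell cycle genes were higher in brain than at 0 hr, against 3.29%, 5.8%, 6.18%, 2.48% and 0% of 19924 genes. The medians were 0.02, 0.36, 1.75, 2.68 and 0.15, and at an unadjusted p under 0.05 edgeR gave 0, 7, 37, 42 and 1 genes. In heart 12, 7, 2, 0 and 0 were lower, against 17%, 8.35%, 1.31%, 0.0402% and 0% of all genes (edgeR, 19, 15, 20, 4 and 0 at an unadjusted p under 0.05), with medians of −0.87, −1.0, −1.09, −0.72 and 1.29. At 168 hr 0 of the 43 were higher in heart by the adjusted p (edgeR) and 26 by the unadjusted p, where 1391 of 19924 genes were.

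Acute-phase and STAT3 genes declined over the same hours. Of 29 genes tested in that fit, 26, 27, 24, 12 and 0 were higher in brain (medians 3.72, 3.36, 2.72, 1.69 and 0.05). In heart 25, 24, 17, 5 and 0 were higher (medians 3.61, 2.99, 2.14, 0.84 and −0.64), where 18.9%, 9.84%, 4.16%, 0.602% and 0.1% of all genes were. At 168 hr edgeR gave 1 gene in brain and 0 in heart at an unadjusted p under 0.05. The difference between the tissues passed for 0 of them in either direction at 72 hr (edgeR, 2 above and 1 below at an unadjusted p under 0.05).

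Cdc20 in brain had responses of −0.14 ± 0.37, 0.61 ± 0.39, 1.53 ± 0.36, 2.50 ± 0.39 and 0.09 ± 0.41 at 6, 24, 48, 72 and 168 hr. In heart they were −1.18 ± 0.35, −1.37 ± 0.39, −1.41 ± 0.34, −1.17 ± 0.38 and 0.88 ± 0.38. Mcm3 passed in brain from 24 hr (1.07 ± 0.32, adjusted p = 0.0263) and Mki67 from 48 hr, reaching 5.05 ± 0.80 at 72 hr (adjusted p = 5.1e-05). Cx3cl1 differed between the tissues at 6, 24, 48 and 72 hr, with differences of −2.17, −2.65, −2.60 and −2.28 (adjusted p = 0.00911, 0.00673, 0.00349 and 0.029).

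**Figure D5:**
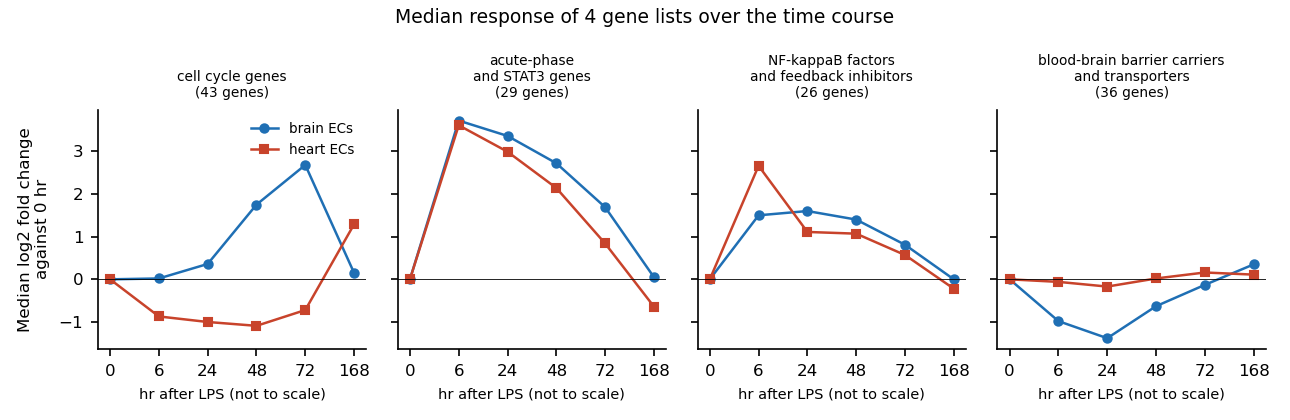
Median log2 fold change against 0 hr of 4 gene lists in brain ECs (blue circles) and heart ECs (red squares) at 6, 24, 48, 72 and 168 hr after LPS; the hours are evenly spaced and not to scale. The cell cycle median in brain climbs to 2.68 at 72 hr while that of heart stays below 0 until 168 hr, and the acute-phase medians fall from 3.72 at 6 hr to 1.69 at 72 hr in brain and from 3.61 to 0.84 in heart.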

How the data were processed

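RNA bound to HA-tagged ribosomes was sequenced, and per the submitters' processing notes reads were aligned with STAR 2.4.2 to mm10 and counted per gene with HTSeq 0.6.1. The authors deposited raw counts per gene, 1 or more files per library, and the annotation release and strand setting are not given in the sources used here. The 60 count files of the 26 libraries of the 4 groups were summed by library, rows that name no gene were left out of library sizes, and 4 libraries with under 3% of reads on genes (526005 to 630497 counts, 2.11% to 2.54% on genes) were dropped. Whether libraries repeat each other was checked, and the smallest chi-square over its degrees of freedom within a group was 15.1.

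Differences were tested with edgeR 4.0.16 (R 4.3.3; TMM scaling, filterByExpr, two-sided quasi-likelihood F tests, Benjamini-Hochberg over all genes tested, threshold 0.05) on tissue by time groups with library series as a covariate. SE is the log2 fold change over the square root of F, and the prior count behind log2 CPM levels was 2. The study corrected for batch and did not block on the mouse. File names give the same mouse for brain and heart libraries of a number in 11 of 11 pairs; the correlation of their deviations from group means was −0.05 to 0.16 at 0 hr (own number highest in 2 of 5) and 0.41 to 0.54 at 48 hr (5 of 6), so the fit with time and replicate number as a block is given beside results it changes. DESeq2 1.42.0, limma-voom 3.58.1, other scaling, filters, subsets of library series and each library left out in turn were the alternatives; leaving out library series 4 and estimating library series per tissue were added after seeing the data. The script was tested on simulated data with 200 changed genes. It recovered 8 of 100 genes with a 2-fold difference and 63 of 100 with a 4-fold difference, and 5 of its 76 calls were false.

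The members and gene lists were chosen with earlier results of these data known. Named genes were the 10 with the largest difference per direction among called genes whose log2 CPM averaged 4 or more and whose sign was the same within library series 1 and 2 (117 of 360 called genes passed), up to 4 per direction with the smallest adjusted p from each list, and the genes the study names. Others are said to be picked after their values were seen. Promoters are RefSeq windows of GRCm38.p6, searched on both strands. The intervals cover the spread between libraries.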

Additional observations from a re-analysis of the deposited data

Results flagged for a closer look

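The interaction of tissue and time itself was a difference between groups, with 171 genes above and 189 below. In the 4 libraries left out for their low share of reads on genes, Lcn2 stood at 416 CPM in the brain library at 48 hr and 203 CPM in the heart library at 48 hr, against 0 in the libraries of both tissues at 0 hr.

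In 13 of 336 groups of libraries of the named genes, 1 library lay far from the others by Dixon's 95% criterion, which chance meets in about 1 in 20 groups. Among genes with a larger brain response, heart replicate 6 at 48 hr was the highest of its group for Adamts9 (8.58 log2 CPM), heart replicate 3 at 0 hr the lowest for Cd14 (1.34), brain replicate 4 at 0 hr the lowest for Lpin3 (−0.30), heart replicate 4 at 48 hr the lowest for Ptger4 (2.55) and heart replicate 2 at 48 hr the highest for Mki67 (5.87). Among genes with a smaller brain response, heart replicate 3 at 0 hr was the highest for Bmp4 (6.50), heart replicate 2 at 0 hr the lowest for C2 (−3.32), heart replicate 6 at 48 hr the highest for Mfsd2a (−0.60), brain replicate 6 at 48 hr the highest for Ndrg1 (9.04), heart replicate 7 at 48 hr the highest for Bnip3 (7.59) and heart replicate 4 at 0 hr the highest for Ngp (−2.48). For Ccl11 heart replicate 2 at 0 hr (0.27) and heart replicate 3 at 48 hr (0.48) were the highest of their groups.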

How the results depend on the processing

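None of the 59 named genes past the threshold changed the sign of its difference under any alternative run, while differences that did not pass (Lcn2, Vwa1, Tspan8, Foxf1, Rnd1, Aif1, Casp6, Cav1, Cxcl9 and Sele) turned sign under some. For the genes named by the size of their difference, the sign within library series 1 and 2 was a condition of being named. Those 2 fits therefore could not turn their sign. The number of calls moved widely. The balance turned to more genes above than below under several alternatives. Genes above and below in the interaction numbered 761 and 440 with no low-count filter, 86 and 81 with no covariate for library series, 0 and 0 within library series 1, 25 and 54 within library series 2, 96 and 54 without library series 4, 118 and 106 with library series per tissue, 155 and 113 with the replicate block, 91 and 91 with limma-voom and 400 and 465 with DESeq2, and ran from 96 to 230 above and 95 to 292 below without 1 library (96 and 95 without brain 0 hr replicate 4, 230 without brain 48 hr replicate 2, 292 without heart 48 hr replicate 2). Genes that rose in brain numbered 1608 with no filter, 51 and 467 within library series 1 and 2, 1231 with all time points in 1 fit, 1234 with DESeq2 and 525 to 1117 without 1 library; genes that fell in brain 9 and 197 within library series 1 and 2, 179 without library series 4, 731 with all time points, 939 with DESeq2, 243 with an absolute log2 value of at least 1 and 187 to 552 without 1 library. Genes that rose in heart numbered 878 with no filter, 24 within library series 1, 828 with all time points and 793 with DESeq2; genes that fell in heart 596 with no filter, 2 and 111 within library series 1 and 2, 110 without library series 4, 123 with limma-voom, 354 with DESeq2 and 92 to 220 without 1 library. Fits within 1 library series hold fewer libraries, and the cause of the other shifts was not tested. The median difference of all genes was −0.049, and it was 0.167 with no filter, 0.121 without library series 4 and 0.144 to 0.161 without heart 48 hr replicate 3, 6 or 7, against which the cell cycle medians of 2.70 to 3.06 stand. Of 59 named genes past the threshold, 42 also passed with the replicate block and 33 without any 1 library. Over all alternatives 2587 values of named genes kept their side of the threshold, 427 lost the call and 20 gained it.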
